A study of Homo sapiens with 6 samples.

Results

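The SLC7A5 locus was described from ATAC-seq of A375 cells, an established human melanoma line, as the 36 regions that the authors named for SLC7A5 out of 226920 regions in all. The members were every region that carried this gene name in the 3 tables of the authors' comparisons, with each region counted once, and all 36 were in all 3 tables. The groups were cells given recombinant HMGA1 for 2 h, cells given it for 18 h and untreated cells (mock). Each of the 3 groups had 2 libraries, and all groups were the same line with no other agent in the labels. The labels name a single mock group and no time for it, so HMGA1 exposure and time in culture cannot be told apart. HMGA1 is a small nuclear protein that bends and opens chromatin by gripping AT-rich stretches of the double helix, and the study concerns its uptake by melanoma cells. The treated and mock cells were frozen before their nuclei were made, per the labels' protocols. The tables held 0 columns with the values of 1 library, so the depth of each library is unknown, levels could not be given per library, and the error of each value is the authors' standard error (SE). The labels call the libraries biological replicates without naming separate cultures, so part of this error may be technical.

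SLC7A5 encodes LAT1, the light chain of a membrane exchanger that imports large neutral amino acids such as leucine, and it pairs with the heavy chain encoded by SLC3A2. Leucine that enters the cell is sensed at the lysosome, where Rag GTPases recruit the growth kinase complex mTORC1. MYC and ATF4 are known activators of the gene, and many tumours, melanoma included, carry high LAT1. ATAC-seq counts insertions of the Tn5 transposase, which reaches nucleosome-free DNA most easily.

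The gene lay on the minus strand of chromosome 16 (hg38, 87830023 to 87869507, 39485 bases in RefSeq), so that downstream runs towards lower coordinates. Of the 36 regions, 25 were in the gene body, 2 within 1 kb of the gene start, 1 upstream of it and 8 past the gene end. They stretched over 52.7 kb, were 501 bases wide in 35 cases and 1002 bases in 1, and had a median gap of 537 bases between neighbours. With 6.84 regions per 10 kb of its span, SLC7A5 was densely covered. The median was 1.47 over the 3897 protein-coding genes with at least 10 regions in their span, and 6.65% of these genes were denser. How the regions were defined is not known here. Weak regions may have entered the set through the 2 h libraries, so this density may not be independent of the change at 2 h. The exon structure was not analysed here.

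A pair of 300-base windows on GRCh38.p14 (hg38) is shown because member regions cover them: the SLC7A5 promoter, of which 213 bases lay in the region at the gene start, and the start of the antisense noncoding RNA gene SLC7A5-AS1, which lay whole in a gene body region. Both sequences are from RefSeq, 5′ to 3′ on the strand of their gene, from 250 bases before the start to 50 after it. Capitals mark CACGTG, the E-box that MYC and related factors bind, and GGGCGG on either strand, the GC box that SP1 and related factors bind.
SLC7A5, chr16:87869458-87869757, minus strand: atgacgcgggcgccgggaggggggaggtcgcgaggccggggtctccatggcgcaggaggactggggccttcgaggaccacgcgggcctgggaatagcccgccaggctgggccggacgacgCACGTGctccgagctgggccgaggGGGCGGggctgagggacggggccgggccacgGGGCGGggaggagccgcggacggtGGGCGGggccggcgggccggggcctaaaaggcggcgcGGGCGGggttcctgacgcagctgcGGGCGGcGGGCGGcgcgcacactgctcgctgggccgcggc
SLC7A5-AS1, chr16:87836015-87836314, plus strand: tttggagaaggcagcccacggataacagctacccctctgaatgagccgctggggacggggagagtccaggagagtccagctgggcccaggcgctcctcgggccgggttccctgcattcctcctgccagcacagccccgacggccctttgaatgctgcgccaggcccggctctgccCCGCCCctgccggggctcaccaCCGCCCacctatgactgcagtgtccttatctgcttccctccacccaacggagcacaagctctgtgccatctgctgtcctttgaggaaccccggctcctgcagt

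The SLC7A5 promoter held 80.3% G and C, more than 97.7% of the 35116 promoters of the same length, whose median was 58.7%. The SLC7A5-AS1 window held 65.7%. CACGTG occurred once in the SLC7A5 promoter, starting 130 bases before the gene start (position -130), and 0 times in the SLC7A5-AS1 window. It was found in 7.26% of all promoters. GGGCGG occurred 6 times in the SLC7A5 promoter and 2 times in the SLC7A5-AS1 window, none of these matches overlapped another, and 45.0% of all promoters held it. Neither window held TGATGNAA, the composite letters bound by ATF4 with C/EBP factors (3.62% of all promoters), TGANTCA, the letters bound by AP-1 (7.71%), or a run of A and T of 6 or more letters (61.2%). The search covered both strands. The matches describe these letters and do not show binding.

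SLC7A5 was chosen by its fold changes and the authors' calls in these same comparisons, so its fold changes and the authors' calls are given as a description. A region was called where the adjusted p of the authors' deposited table (DESeq2) was under 0.05. The authors gave no adjusted value below 1 to regions with a mean signal (reads per region after scaling, averaged over the 6 libraries) under 56.2 at 2 h against mock, 101 at 18 h against mock or 41.7 at 18 h against 2 h. That left 24, 11 and 32 of the 36 members as tested. A region that gained signal at 2 h also had a higher mean, so counts over the tested members alone do not stand for all members, and medians below cover all of them unless said otherwise.

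After 2 h, the SLC7A5 regions differed by how strong they were and by where they lay. These went together, since downstream regions had mean signals of 135 or less, and the start and upstream regions 356 or more. In the authors' deposited table, 11 members were called higher than mock and 1 lower, out of 24 tested. Over the whole series 0.856% of tested regions were called higher and 0.421% lower. At 18 h against mock, 0 of 11 tested members were called (0.121% of all tested regions were, in either direction), and 2 of the 36 had an unadjusted p under 0.05 in the authors' deposited table (DESeq2). At 18 h against 2 h, 20 members were called lower and 1 higher out of 32 tested, against 2.98% called lower and 0.498% called higher over the series. The 3 comparisons came from a single fit and are not independent of each other: those against mock share the mock libraries, and the 2 h libraries enter both 2 h over mock and 18 h over 2 h with opposite sign.

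**Figure D1:**
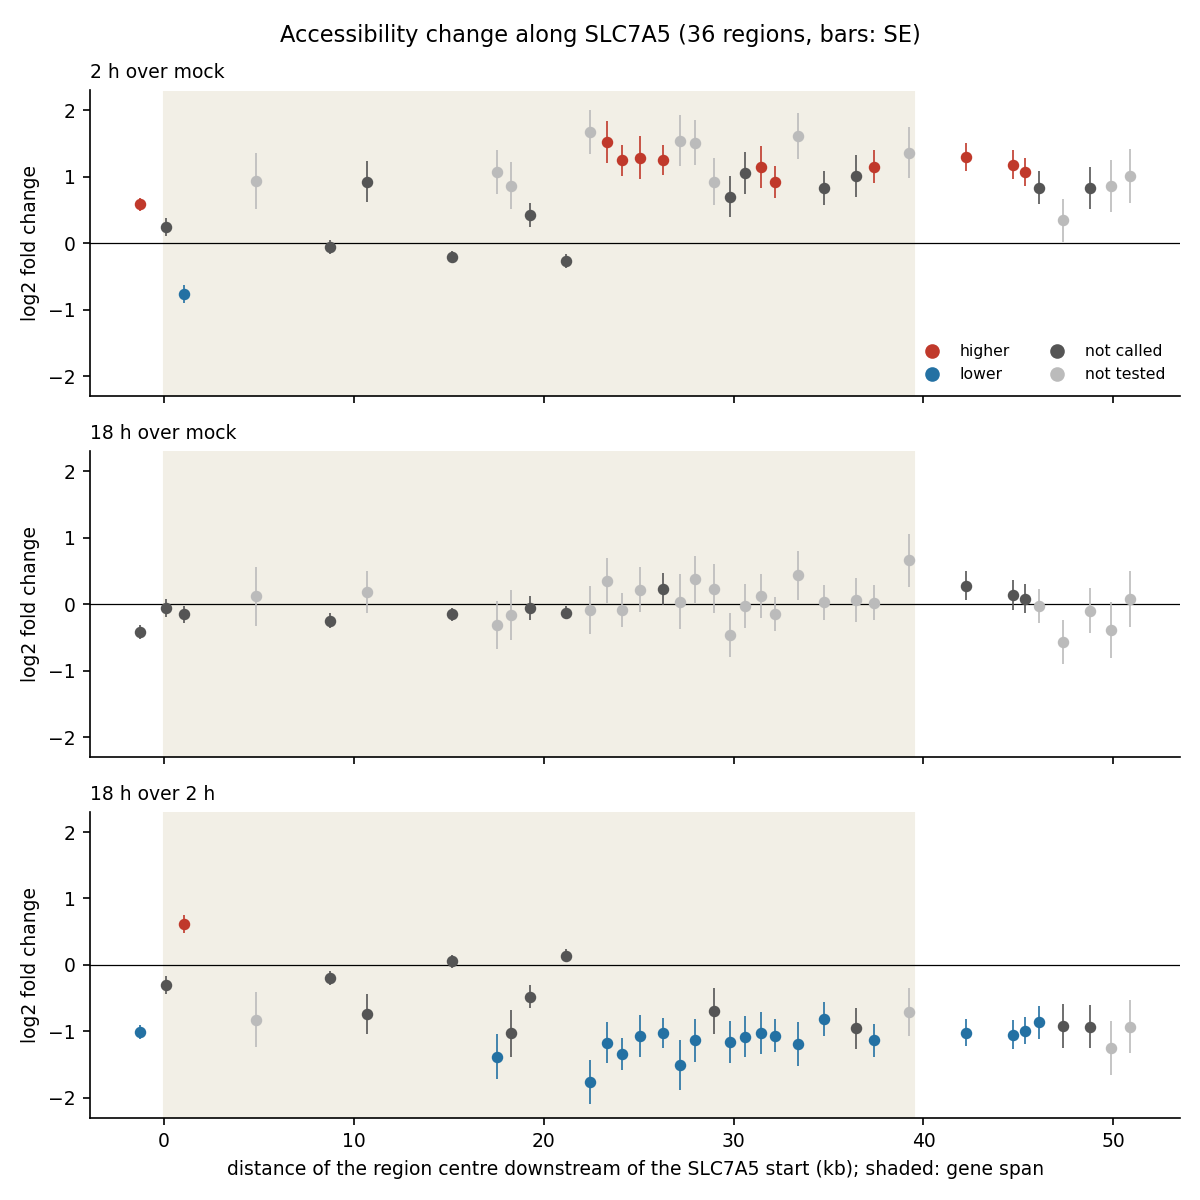
Log2 fold change (vertical axis) of the 36 SLC7A5 regions by distance downstream of the gene start in kb (horizontal axis), with the gene span shaded, for 2 h over mock, 18 h over mock and 18 h over 2 h; bars are the authors' SE and colours give the authors' calls. At 2 h most gene body and downstream points lie between 0.35 and 1.68, 3 gene body points lie at or just below 0, and at 18 h over mock the points scatter around 0.

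At 2 h the region at the gene start was not called, while one flank was called lower and the other higher. Because no values per library were at hand, the level of a group was taken from the mean signal and the fold changes, as the level that the deposited values imply for that group. The region at the start (chromosome 16, 87869169 to 87869670) had implied levels of 387 in mock, 459 at 2 h and 373 at 18 h. The authors' deposited table gave it a log2 fold change of 0.24 ± 0.13 (SE) at 2 h and -0.05 ± 0.14 at 18 h over mock, and it was called in none of the 3 comparisons. Its 2 h level was the highest of the 3 groups, by less than 2 SE over mock.

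The region 803 bases into the gene (87868185 to 87868686) went the other way. Its implied levels were 429 in mock, 253 at 2 h and 386 at 18 h. It was 1.70-fold lower at 2 h than in mock (log2 fold change -0.76 ± 0.13, SE) and called lower in the authors' deposited table. At 18 h it stood at -0.15 ± 0.13 over mock, not called, and at 0.61 ± 0.13 over 2 h, called higher, in the authors' deposited table.

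Upstream, 1036 bases before the start (87870524 to 87871025), accessibility was higher than mock at 2 h and lower at 18 h than at 2 h. The implied levels were 626 in mock, 940 at 2 h and 469 at 18 h, so this was the strongest SLC7A5 region at 2 h. In the authors' deposited table it was called higher at 2 h than in mock (log2 fold change 0.59 ± 0.10, SE). It had -1.004 ± 0.11 at 18 h over 2 h, a 2.01-fold difference, and was called lower. At 18 h over mock it had -0.42 ± 0.11, with an adjusted p of 0.0644 by DESeq2 in the authors' deposited table, which missed the threshold. This region and the one 803 bases into the gene thus had opposite signs at 2 h, on either side of a start region that was not called.

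Inside the gene, 3 strong regions were called in none of the comparisons. They lay 8.47, 14.9 and 20.9 kb from the start and had mean signals of 534, 851 and 740. In the authors' deposited table their log2 fold changes at 2 h over mock were -0.05 ± 0.11, -0.21 ± 0.10 and -0.27 ± 0.10 (SE). At 18 h over mock they were -0.25 ± 0.11, -0.15 ± 0.09 and -0.13 ± 0.10 in the authors' deposited table. For comparison, the 14036 regions of the series with mean signals between 356 and 851 had a median of -0.10 at 2 h and -0.08 at 18 h. Of these, 0.883% were called higher and 1.09% lower at 2 h against mock, and 0% and 0.271% at 18 h against mock. At 18 h against 2 h it was 1.01% higher and 4.79% lower. The absence of calls in 3 regions is therefore no result about them. The implied levels of the region 14.9 kb from the start, the strongest gene body region, were 922 in mock, 800 at 2 h and 830 at 18 h.

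The other 22 gene body regions, all with mean signals of 179 or less, were all above mock at 2 h. Weak regions may have entered the set through the 2 h libraries, so this shared direction may not be independent of how regions were defined. The split between strong and weak regions, set at a mean signal of 300, was made after the values were seen. At 2 h over mock the median log2 fold change of the 22 was 1.11 (2.16-fold), and they ranged from 0.42 to 1.68 in the authors' deposited table. Of these, 13 were tested and 7 called higher, beside 0.856% of tested regions over the series. The 9 that were not tested ranged from 0.87 to 1.68, with a median of 1.37. The 100801 regions of the series with mean signals between 31.6 and 179 had a median of -0.002 at 2 h, a 95th percentile of 0.54, and 0.447% of them reached a log2 fold change of 1 or more.

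The weak regions were densest between 22 and 39 kb from the start. The region 22.1 kb from the start had the highest fold change of all members, 1.68 ± 0.33 (SE) or 3.21-fold in the authors' deposited table, but its mean signal of 52.8 left it untested at 2 h. Its implied levels were 30.7 in mock, 98.5 at 2 h and 29.0 at 18 h. Its downstream neighbour at 23.1 kb had 1.52 ± 0.32, the highest of the called regions, and levels of 35.0 in mock, 101 at 2 h and 44.8 at 18 h, in values implied by the authors' deposited table. The strong region at 20.9 kb, whose centre is 1.23 kb from that of the 22.1 kb region, differed from it by 1.95 on the log2 scale at 2 h. This was the largest step between neighbours among the 36 regions.

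Other regions of this stretch were called too. The authors' deposited table gave 1.25 ± 0.24 at 23.8 kb, 1.29 ± 0.32 at 24.8 kb and 1.25 ± 0.23 (SE) at 25.7 kb, the 1002-base region, all called higher at 2 h. Towards the gene end, it gave 1.15 ± 0.32 at 31.2 kb, 0.92 ± 0.24 at 31.9 kb and 1.16 ± 0.25 at 37.1 kb, again called higher. Between these, the regions at 30.3 kb (1.05 ± 0.32), 29.5 kb (0.70 ± 0.31) and 36.2 kb (1.02 ± 0.31, SE) missed the call in the authors' deposited table. The regions at 26.9 kb (1.55 ± 0.38), 27.7 kb (1.51 ± 0.34) and 28.7 kb (0.93 ± 0.35) were not tested there at 2 h. The levels implied by the authors' deposited table at 37.1 kb were 64.2 in mock, 143 at 2 h and 65.1 at 18 h. The region that covers the SLC7A5-AS1 window printed above, 33.1 kb from the SLC7A5 start, had 1.62 ± 0.34 at 2 h in the authors' deposited table, was not tested there, and was called lower at 18 h than at 2 h (-1.18 ± 0.33). The counts carry no strand, so signal there belongs to the DNA of both genes. The region at 34.5 kb, which contains the microRNA gene MIR6775, had 0.84 ± 0.26 at 2 h in the authors' deposited table, which missed the call.

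In the first 20 kb of the gene, weak regions were fewer. They lay 4.60, 10.4, 17.3, 18.0 and 19.0 kb from the start. The authors' deposited table gave them 0.94 ± 0.42, 0.93 ± 0.31, 1.07 ± 0.33, 0.87 ± 0.35 and 0.42 ± 0.18 (SE) at 2 h over mock. The regions at 10.4 and 19.0 kb were tested and missed the call, and the other 3 were not tested. The region at 19.0 kb had the highest mean signal of the weak regions, 179, and the lowest fold change of the 22. Over the 25 gene body regions, the correlation between log2 mean signal and log2 fold change at 2 h was r = -0.83 (Spearman's rho = -0.45). Over all 36 members it was r = -0.71 (rho = -0.40). These points share libraries and a single fit, the few strong regions carry most of r, and no p is given. The 2 h libraries enter both the mean signal and the fold change. Over all regions of the series the 2 h values also fell with mean signal. Their median went from 0.11 near a signal of 20.5 to -0.097 near 748, and their 95th percentile from 0.80 to 0.12.

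**Figure D2:**
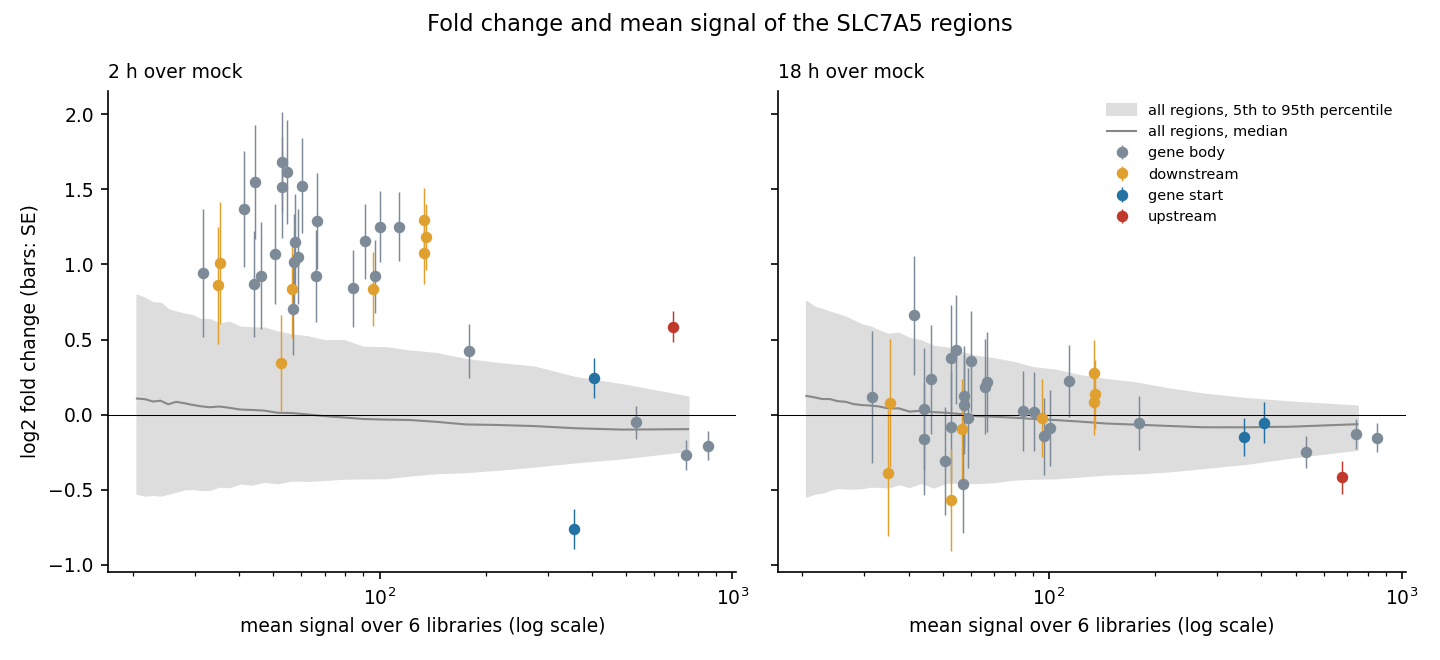
Log2 fold change (vertical axis, bars are the authors' SE) against mean signal over the 6 libraries (horizontal log axis) for the 36 SLC7A5 regions by location, at 2 h over mock and at 18 h over mock; grey bands span the 5th to 95th percentile of all regions of the series at that signal. At 2 h the weak gene body and downstream regions lie above the band in most cases, with a median of 1.11 for the 22 in the gene body, while the 3 strong ones lie between -0.27 and -0.05.

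Past the gene end, 3 of 5 tested regions were called higher at 2 h, beside 0.856% of tested regions over the series. The median log2 fold change of the 8 downstream regions, up to 11.7 kb past the end, was 0.93 at 2 h over mock (1.91-fold), with values between 0.35 and 1.30 in the authors' deposited table. Of 5 tested, those called higher were at 42.0 kb (1.30 ± 0.21), 44.4 kb (1.19 ± 0.22) and 45.1 kb (1.07 ± 0.20, SE) from the start, in the authors' deposited table. The regions at 45.8 kb (0.84 ± 0.25) and 48.5 kb (0.83 ± 0.32) missed the call in the authors' deposited table, and the other 3 were not tested. Of these called regions, the one nearest to the gene (87827019 to 87827520) lay 2491 bases from the region that straddles the gene end. Its implied levels were 85.9 in mock, 211 at 2 h and 104 at 18 h. The region that straddles the gene end (87830011 to 87830512) had 1.37 ± 0.39 in the authors' deposited table and was not tested. At 2 h the farthest called region reached 6.12 kb past the gene end.

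At 18 h the weak regions lay near their mock levels. Over all 36 members the median log2 fold change at 18 h over mock was -0.001, with 18 members above 0 and 18 below, and 34 of 36 lay within 2 SE of 0 in the authors' deposited table. The exceptions were the upstream region and the region 8.47 kb from the start. For the 30 members with a mean signal of 300 or less, the median implied level was 43.5 in mock, 91.5 at 2 h and 43.3 at 18 h. In all 30 of them the 2 h level was the highest of the 3 groups. If weak regions entered the set through the 2 h libraries, this order would follow in part from their selection, which was not tested. Mock and 18 h did not differ by more than 2 SE in any of these 30. Their SE ran from 0.18 to 0.44 and only 5 of them were tested, so differences within that error could go unseen. For the 6 members above 300 the order was mixed: 2 h was the highest group in 2, the lowest in 3 and in between in 1, and 18 h was below mock in all 6. The lowest log2 fold changes at 18 h over 2 h were at 22.1 kb (-1.76 ± 0.33), 26.9 kb (-1.51 ± 0.38) and 17.3 kb (-1.38 ± 0.34, SE) from the start in the authors' deposited table. Over the 25 gene body regions the median at 18 h over 2 h was -1.03 (2.04-fold lower).

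**Figure D3:**
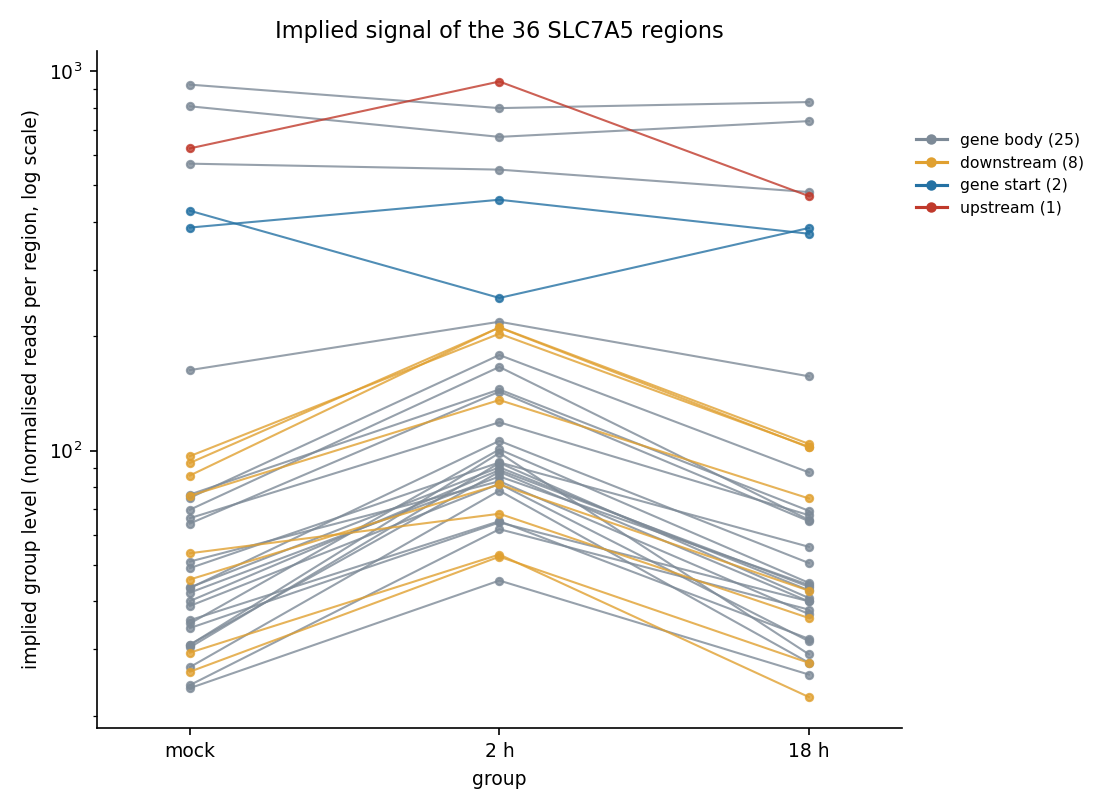
Level of each of the 36 SLC7A5 regions implied by the deposited mean signal and fold changes (vertical log axis, reads per region after the authors' scaling) in mock, 2 h and 18 h (horizontal axis), with 1 line per region coloured by location; errors per group were not used here. The 30 weaker regions peak at 2 h, with medians of 43.5, 91.5 and 43.3, while the region 803 bases into the gene has its lowest level, 253, at 2 h.

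At 2 h the regions around the locus had lower fold changes as a median. Within 250 kb of either end of the gene lay 96 other regions, named for JPH3, KLHDC4, CA5A and BANP. Of these, 0 of 31 tested were called at 2 h and 0 of 19 at 18 h against mock in the authors' deposited table (DESeq2). At 18 h against 2 h, 1 of 36 was called, a KLHDC4 region 79.3 kb from the SLC7A5 start that was lower (-0.54 ± 0.15, SE, authors' deposited table). That region had 0.46 ± 0.15 at 2 h over mock and missed the call in the authors' deposited table. With series shares of 0.856% called higher and 0.421% lower at 2 h, and 2.98% called lower at 18 h against 2 h, these counts are near the background and say nothing particular of the neighbours. Whether the 2 h change differs between SLC7A5 and its neighbours was not tested. The median log2 fold change at 2 h was 0.98 over the 36 SLC7A5 regions and 0.18 over these 96, and by name it was 0.17 for JPH3, 0.21 for KLHDC4, 0.26 for CA5A and 0.10 for BANP. JPH3 encodes a junctional membrane protein of neurons, CA5A a mitochondrial carbonic anhydrase and BANP a nuclear DNA-binding protein. On the downstream side the last SLC7A5 region (87818365 to 87818866) had 1.01 ± 0.41 (SE) at 2 h, and the next one, named for KLHDC4 and 12.8 kb past the gene end, had 0.29 ± 0.44 in the authors' deposited table; neither was tested. On the upstream side the nearest other region, named for CA5A and 12.0 kb before the SLC7A5 start, had -0.08 ± 0.30 in the authors' deposited table and missed the call.

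**Figure D4:**
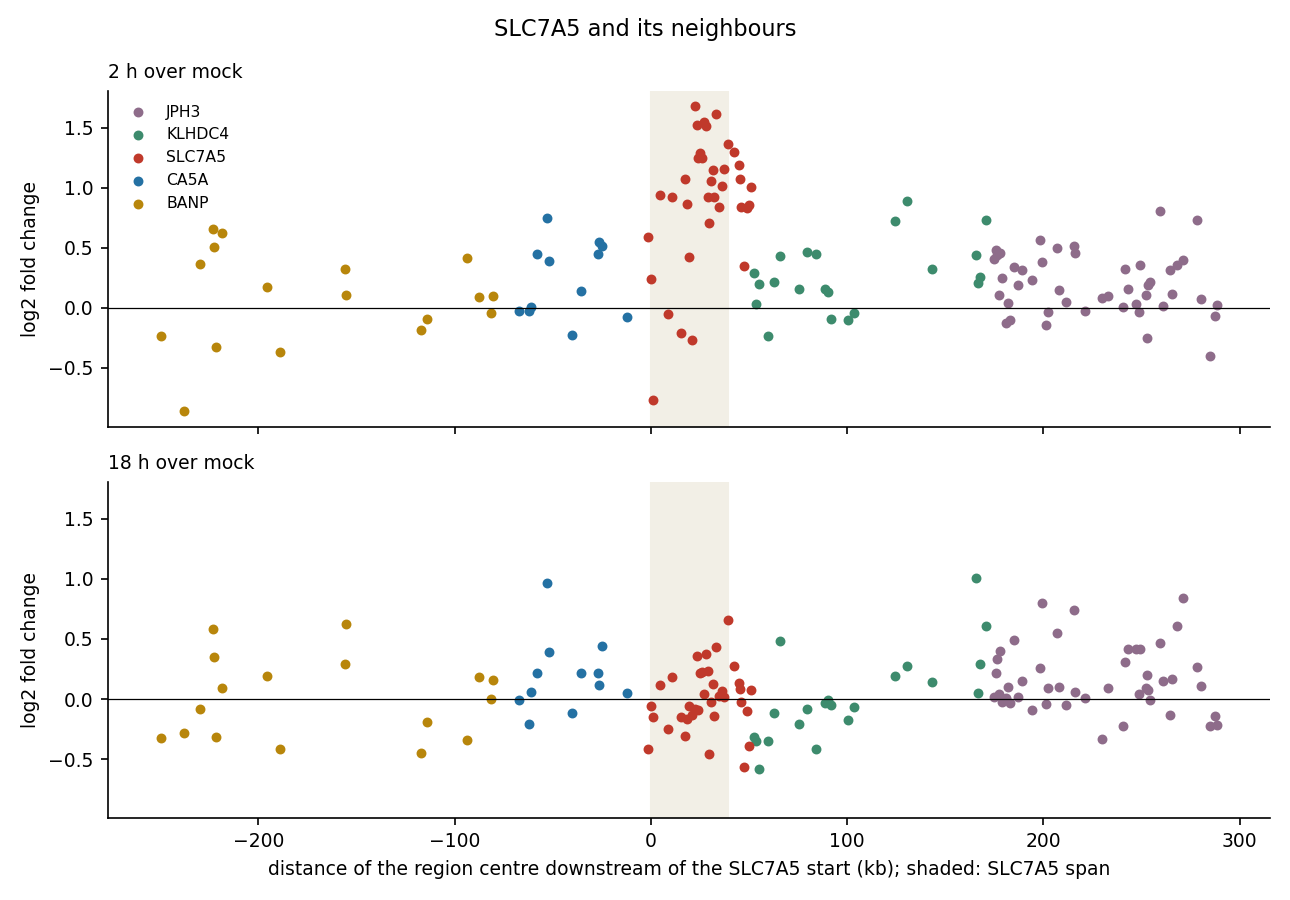
Log2 fold change (vertical axis) of the 36 SLC7A5 regions and the 96 others within 250 kb, by distance downstream of the SLC7A5 start in kb (horizontal axis) and coloured by the gene name in the tables, at 2 h over mock and at 18 h over mock. At 2 h the SLC7A5 points have a median of 0.98, against 0.18 for the other points, and at 18 h both scatter around 0.

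Among 3897 protein-coding genes with at least 10 regions in their span, SLC7A5 had the rank 4 by the median log2 fold change over all regions in the span at 2 h, 1.02 over 27 regions. The median over these genes was 0.002, their 99th percentile 0.46, and 30 genes reached 0.5. Above SLC7A5 stood THBS1, which encodes a secreted matrix glycoprotein (1.42), CPA4, a carboxypeptidase gene (1.22), and TPM1, a tropomyosin gene (1.15). At 2 h, 13 of 15 tested regions were called higher for THBS1, 0 of 1 for CPA4 and 0 of 5 for TPM1. In the SLC7A5 span, 7 of 18 were called higher and 1 lower, beside 0.856% and 0.421% over the series. Over tested regions alone the medians were 1.42 for THBS1, 0.21 for CPA4, 0.20 for TPM1 and 0.92 for SLC7A5. At 18 h over mock the median over all regions in the span was 0.02 for SLC7A5, 0.16 for THBS1, 0.19 for CPA4 and -0.03 for TPM1. This ranking uses the contrast for which the gene was chosen and is a description.

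**Figure D5:**
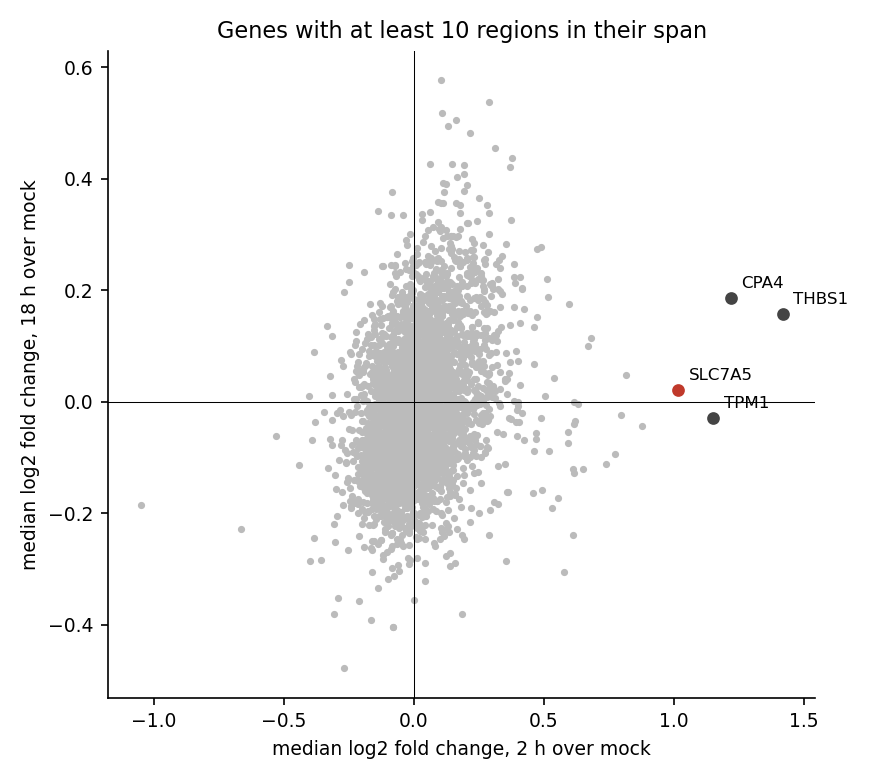
Median log2 fold change over all regions in the gene span at 2 h over mock (horizontal axis) and at 18 h over mock (vertical axis), 1 point per protein-coding gene with at least 10 regions; both axes share the mock libraries. SLC7A5 lies at 1.02 and 0.02, near THBS1, CPA4 and TPM1 and to the right of the 99th percentile of 0.46.

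The nearest genes in pattern were sought among 24 other gene names with at least 5 regions tested at both times against mock and at least 3 called higher at 2 h. Likeness was the straight-line distance between the pairs of median log2 fold changes (2 h and 18 h over mock) over regions tested at both times within 100 kb of the start. SLC7A5 had 0.42 and -0.05 over 11 such regions, a set that holds its strong regions and few of the weak ones. The 5 nearest were CCND1, which encodes a G1 cyclin (0.31 and 0.03 over 8 regions, distance 0.141), STK3 (0.23 and -0.14 over 4, distance 0.209), TENM2 (0.22 and -0.16 over 5, distance 0.226), DDAH1 (0.22 and -0.22 over 6, distance 0.261) and CLDN23 (0.17 and -0.13 over 7, distance 0.268). The minimum of 5 regions held at any distance from the start, so fewer could lie within 100 kb. The pairs rest on 3 groups of 2 libraries, and the values of all genes share them.

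The starts of the genes that work with LAT1 lay close to those of other genes. Of 54 genes of amino acid transport, sensing, mTORC1 and amino acid stress, 52 had a region within 1 kb of the start, and 50 of these were tested in each of the 3 comparisons. None of the 50 was called in any comparison in the authors' deposited table (DESeq2). Calls at starts were rare over the series, with 8 of 8354 tested start regions (0.0958%) at 2 h, 0 of 7851 at 18 h against mock and 23 of 8579 (0.268%) at 18 h against 2 h, so the absence of calls is no result about these genes. The median log2 fold change of the 50 at 2 h was -0.09, between -0.24 and 0.04, beside -0.11 over the 8354 tested regions at gene starts of the series. SLC3A2, the heavy chain partner of LAT1, had -0.10 ± 0.10 (SE) at its start at 2 h in the authors' deposited table. The transporter genes SLC7A6 and SLC43A1, which also serve large neutral amino acids, had -0.11 ± 0.13 and -0.07 ± 0.17 at their starts, and the glutamine carrier SLC1A5 -0.23 ± 0.12. For MTOR the authors' deposited table gave 0.01 ± 0.08, for the leucine sensor SESN2 -0.10 ± 0.10 and for ATF4 -0.14 ± 0.11 at 2 h.

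Counting all regions of these 54 genes, 0 of 238 tested were higher and 1 was lower at 2 h in the authors' deposited table, beside 0.856% and 0.421% over the series. At 18 h against mock 0 of 166 were called, beside 0.121%. The lower one was named for PSAT1, an enzyme gene of serine synthesis, at 488 kb from its start (-0.72 ± 0.17, SE, authors' deposited table). At 18 h against 2 h, 10 of 285 were lower, named for 4 genes, and 2 were higher, beside 2.98% and 0.498% over the series. All these counts are near the background. The lower ones were named for PSAT1 (5 regions), RPTOR, the scaffold of mTORC1 (2), the autophagy kinase gene ULK1 (2) and RHEB, the GTPase that activates mTORC1 (1). The higher ones were named for PSAT1 and EIF4EBP1, a translation repressor gene that mTORC1 inactivates. By group, median log2 fold changes over tested regions at 2 h ran from -0.17 (lysosomal transport, 6 regions) to -0.05 (amino acid stress response, 54 regions), and the large neutral amino acid transporters had -0.07 over 30.

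The cell type was checked at gene starts. Of 6 melanocyte lineage markers, MITF, PMEL and SOX10 had a region within 1 kb of the start, with mean signals of 694, 298 and 63.8, and none was named there for TYR, MLANA or DCT. Of 7 markers of keratinocytes, fibroblasts, endothelial and immune cells, KRT5 and KRT14 had one, at 69.4 and 26.9, while COL1A1, PDGFRA, PECAM1, CDH5 and PTPRC had none. The labels give no batch or date.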

How the data were processed

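A375 cells were profiled by ATAC-seq in 6 libraries, made with Tn5 and sequenced as read pairs per the labels' protocols. Per the submitters' processing notes, reads were demultiplexed with bcl2fastq 2.17, the build was hg38 and the authors used DESeq2; which aligner, peak caller, counter or Tn5 shift was applied is not given in the sources used here. Deposited tables hold, per region, the mean signal over all libraries (reads divided by size factors), the log2 fold change with its SE, the Wald statistic as a score, and the p-value with its adjusted p. Whether coordinates count from 0 or 1 is not stated. Distances to gene starts are the authors'.

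Suffixes on repeated regions were removed and repeats dropped. The count test planned for values per library could not be used, so the deposited values were described and no model was fitted. Regions with a mean signal under the authors' limit count as untested, and the Benjamini-Hochberg method on the rest gave the deposited adjusted p to within 4.99e-14. The deposited 18 h over 2 h value equalled the difference of both fold changes over mock to within 1.02e-14. The implied level in mock is 3 times the mean signal divided by the sum of 1 and both linear fold changes over mock, and is approximate. Analyses used Python 3.11.15, pandas 2.3.3 and scipy 1.17.1. The members, gene lists, motifs and rules were chosen with earlier results of these data known. The named regions are those called in any comparison, the start region and their gene body neighbours. Gene names follow the tables, with older names matched through RefSeq.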

Additional observations from a re-analysis of the deposited data

Results flagged for a closer look

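The log2 fold changes over mock at 18 h and at 2 h differed in 21 of the 32 tested SLC7A5 regions. This rests on the test of 18 h against 2 h in the authors' deposited table (adjusted p by DESeq2 under 0.05). That is the test of the difference between both fold changes over mock, and it cannot tell HMGA1 exposure from time in culture. Over the series, 2.98% of tested regions were called lower and 0.498% higher in this comparison. SLC7A5 was chosen by these same fold changes and calls, so the count of 21 is a description. The values below are log2 fold changes of 18 h over 2 h in the authors' deposited table, with distances from the gene start. Near the start they were 0.61 for the region 803 bases into the gene and -1.004 for the one 1036 bases upstream. In the gene up to 28 kb from the start they were -1.14 at 27.7 kb, -1.51 at 26.9 kb, -1.03 at 25.7 kb, -1.07 at 24.8 kb, -1.34 at 23.8 kb, -1.17 at 23.1 kb, -1.76 at 22.1 kb and -1.38 at 17.3 kb. Further into the gene they were -1.13 at 37.1 kb, -0.81 at 34.5 kb, -1.18 at 33.1 kb, -1.06 at 31.9 kb, -1.02 at 31.2 kb, -1.08 at 30.3 kb and -1.16 at 29.5 kb. Past the gene end they were -0.86 at 45.8 kb, -0.99 at 45.1 kb, -1.05 at 44.4 kb and -1.02 at 42 kb. At the upstream region the log2 fold changes over mock had opposite signs, 0.59 ± 0.10 (SE) at 2 h and -0.42 ± 0.11 at 18 h.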

How the results depend on the processing

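The calls rest on the authors' filter and threshold. Library depths are not known here, and weak regions had the larger SE. Called SLC7A5 regions numbered 12 at 2 h against mock, 0 at 18 h against mock and 21 at 18 h against 2 h as deposited. With the highest of the 3 mean signal limits applied to all comparisons, 6 were called at 2 h against mock and 6 at 18 h against 2 h, since 11 regions were then tested. An adjusted p under 0.01 left 13 at 18 h against 2 h, and one under 0.1 gave 1 at 18 h against mock, the upstream region. Under the other alternatives (centring on the median over tested regions, centring inside each of 20 signal bins, no filter on mean signal, and regions that touch the span) the counts stayed within 1.5 times, between 8 and 16 at 2 h against mock, at 0 at 18 h against mock and between 16 and 21 at 18 h against 2 h. The median over the tested gene body regions was 0.97, -0.13 and -1.06 in the 3 comparisons. A mean weighted by 1 over the squared SE, in which the strong regions dominate, gave 0.27 at 2 h against mock and -0.47 at 18 h against 2 h. At 18 h against mock, taking all 25 gene body regions in place of the 5 tested gave 0.0263. Centring turned the sign of 3 values that were not called: at 8.47 kb, 2 h over mock, to 0.0077 (median) and 0.049 (bins), at 19.0 kb, 18 h over mock, to 0.015 and 0.011, and at the start region, 18 h over mock, to 0.015 and 0.027. The called regions kept their direction in all alternatives run, but not all kept their call. Without the filter, the region at 31.2 kb lost it at 2 h against mock and at 18 h against 2 h. The region at 34.5 kb lost it at 18 h against 2 h. The counts without the filter were 15 and 19, since regions untested as deposited were added. With an adjusted p under 0.01, the regions at 31.2 and 31.9 kb lost their call at 2 h against mock. No paired analysis was possible because the files hold no values per library, and for the same reason leaving out a replicate was not run.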

Other observations

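Other genes had raised medians over the regions in their span at 2 h over mock and values near 0 at 18 h over mock. Their counts of calls rest on 28 tested regions or fewer per gene, and 0.856% of tested regions over the series were called higher at 2 h. CRIM1, which encodes a membrane protein that binds BMPs, had 0.88 at 2 h and -0.04 at 18 h over 108 regions, of which 28 were tested and 1 was called higher at 2 h. GDA, the guanine deaminase gene, had 0.82 and 0.05 over 38 regions, with 2 of 11 tested called higher. MAP3K14, which encodes a kinase of the NF-kB pathway, had 0.80 and -0.02 over 40 regions, and MYOF, a membrane repair gene, had 0.77 and -0.09 over 91, with 0 called of 8 and of 21 tested. CPA4 and TPM1, named in the report, had 0 called of 1 and of 5 tested (DESeq2, authors' deposited table). These genes were picked by rank after the values were seen, their medians rest mostly on regions of low mean signal that the authors did not test, and all share the mock libraries.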
